A study of Arabidopsis thaliana with 87 samples.

Results

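The 6 genes described here encode the enzymes that carry pyruvate into ethanol or lactate when oxygen runs out, and that oxidise the acetaldehyde left over, in Arabidopsis thaliana seedlings. They are the pyruvate decarboxylases PDC1 (AT4G33070) and PDC2 (AT5G54960), the alcohol dehydrogenase ADH1 (AT1G77120), the lactate dehydrogenase LDH1 (AT4G17260) and the mitochondrial aldehyde dehydrogenases ALDH2B7 (AT1G23800) and ALDH2B4 (AT3G48000). They are listed by enzyme function and locus identifier, a list drawn up with earlier results of these data known, and are 6 of the 37899 identifiers in the deposited expression table. All 6 had a value in every column of that table.

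Pyruvate decarboxylase removes carbon dioxide from pyruvate to give acetaldehyde, and alcohol dehydrogenase reduces the acetaldehyde to ethanol, which returns NAD+ to glycolysis and lets ATP be made without respiration. Lactate dehydrogenase returns NAD+ in a single step and acidifies the cytosol. Aldehyde dehydrogenase turns acetaldehyde into acetate, a reaction that uses NAD+ and is of most use once oxygen is back. In Arabidopsis PDC1 and ADH1 belong to the core set of genes induced by low oxygen in most cell types, under control of the oxygen-labile group VII ethylene response factors, of which HRE2 is a member.

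The study followed 7-day-old seedlings through darkness with air (2NS and 9NS, after 2 h and 9 h), through darkness in argon in a sealed chamber (2HS and 9HS, after 2 h and 9 h), and after 2 h of argon followed by air for 1 h (1R) or 2 h (2R). Hypoxic and control seedlings both stood in darkness, so 2NS and 9NS are also a shorter and a longer night. For 1R and 2R the hours of darkness are not given, and no air control of the same total time was among the groups. Their comparisons with 2NS therefore also differ in time. Nuclear RNA depleted of ribosomal RNA, poly(A)+ RNA and open chromatin by ATAC came from the line pUBQ10:NTF pACT2:BirA, whose nuclei carry a biotin tag. Ribosome-bound RNA, isolated by translating ribosome affinity purification (TRAP), came from p35S:RPL18-FLAG, in which a viral promoter drives a tagged ribosomal protein. Chromatin immunoprecipitation used Col-0 for H3K9ac, H3K14ac, H3K4me3, H3K27me3 and RNA polymerase II phosphorylated at Ser2 (Ser2P), pHTA11:HTA11-3XFLAG for the histone variant H2A.Z, and p35S:C2A HRE2-HA, an overexpressed stabilised HRE2, at 2HS with no control group. ATAC used roots and the other assays whole seedlings, so assay, line and, for ATAC, tissue cannot be told apart. Each RNA, Ser2P and H3K4me3 group held 3 libraries and each other group 2, and nothing in the labels says whether these came from separate seedling batches, so p-values describe the spread between these libraries.

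The deposited levels are RPKM (reads per kilobase of gene, scaled to sequencing depth) averaged over a group. Reads of the single libraries were recovered from these means, giving 1050846 to 16609010 reads per nuclear RNA library, 8658720 to 20957002 per poly(A)+ library, 2530002 to 12425850 per TRAP library, 2688037 and 7313849 for HRE2 and 3548473 to 20193000 for the other immunoprecipitations. Libraries of 1 group correlated at 0.94 to 0.97 in poly(A)+ RNA and 0.92 to 0.97 in TRAP RNA, but at 0.40 to 0.87 in nuclear RNA, 0.12 to 0.78 in Ser2P and 0.38 for the pair of HRE2 libraries. The libraries' own values could be fixed for 142 of the 180 combinations of gene and column; the strongly expressed ones among the rest have a mean only, and such a comparison is given with no test. Where libraries are listed, they run from the shallowest of the group to the deepest. Overlap between groups is judged on RPKM before any centring, so the scale of single libraries enters it. That scale is the median ratio of a library to the geometric mean of its assay's libraries. It ran from 0.243 to 1.97 in nuclear, 0.226 to 3.34 in poly(A)+ and 0.903 to 1.13 in TRAP RNA. The share of all genes whose groups did not overlap was not counted, so non-overlap is a description only. Changes are log2 differences of RPKM + 1, relative to the median gene of the comparison, because the libraries were not on one scale: the median gene of the poly(A)+ means lay 1.75 lower (log2) in 9HS than in 9NS and 0.99 higher in 9NS than in 2NS. All 6 genes passed the filter of a mean of 1 RPKM in every assay with RPKM that was compared. Genes known for expression in green tissue summed to between 2595 and 32750 RPKM over the RNA columns and root genes to between 0.256 and 20.3 RPKM; their part in the results was not tested, and in these bulk samples fewer cells of a type and less RNA per cell cannot be told apart.

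The RNA of all 6 genes was present in control seedlings. In TRAP RNA at 2NS, ALDH2B4 was the highest of the 6 with a mean of 36.1 RPKM. LDH1 followed with 26.0, 16.4 and 18.6 RPKM in its 3 libraries, ADH1 with 15.9, 21.1 and 22.2, and PDC2 with 20.3, 18.0 and 16.5. Those 3 genes overlapped one another and could not be ordered. PDC1 was lower, with 9.78, 8.41 and 9.47 RPKM, and ALDH2B7 lowest, between 4.88 and 7.62 RPKM, and neither of them overlapped the gene above it. Ribosome-bound ADH1 RNA thus stood above 88.3% of protein-coding genes before any hypoxia. In nuclear and poly(A)+ RNA at 2NS the ranges of neighbouring genes whose libraries were known overlapped all along the order. Within each poly(A)+ library at 2NS, however, those genes had the same order: PDC2, ADH1, LDH1, PDC1 and ALDH2B7. In nuclear RNA the order differed between libraries.

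**Figure D1:**
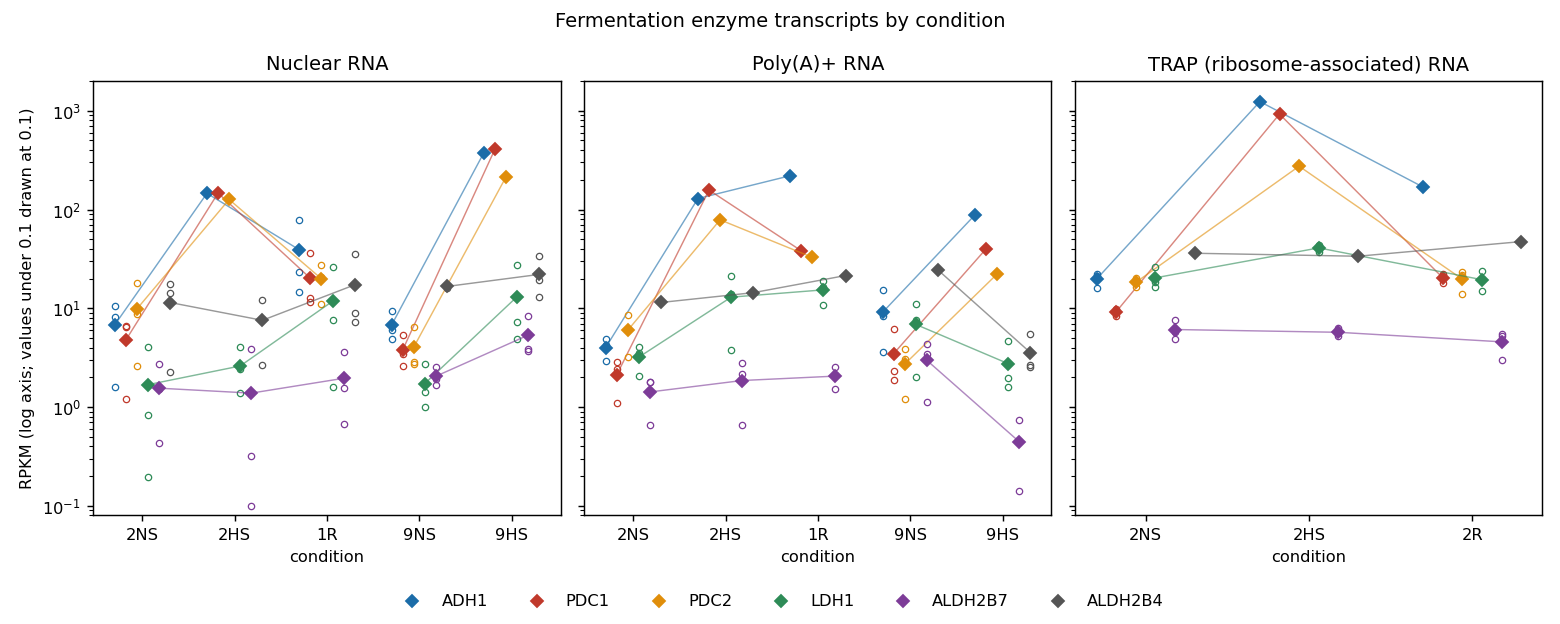
Levels of the 6 genes in nuclear, poly(A)+ and TRAP RNA, in RPKM on a log axis, with values under 0.1 drawn at 0.1. Diamonds are the authors' group means and open circles the single libraries where these could be recovered; lines join the groups of the short and of the long treatment. The means of ADH1, PDC1 and PDC2 are higher at 2HS in all 3 RNA pools, reaching 1238, 925 and 275 RPKM in TRAP RNA, while ALDH2B7 and ALDH2B4 stay near their control levels there.

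After 2 h of hypoxia the RNA of all 3 genes of the ethanol route had a higher mean in every pool. The mean level of PDC1, which commits pyruvate to the route, went from 4.75 to 147 RPKM in nuclear RNA, from 2.12 to 157 in poly(A)+ RNA and from 9.22 to 925 in TRAP RNA. That is 30.9-fold, 74.4-fold and 100-fold. The mean level of ADH1, the final step, went from 6.78 to 146 RPKM in nuclear RNA, from 3.99 to 129 in poly(A)+ RNA and from 19.8 to 1238 in TRAP RNA, or 21.5-fold, 32.3-fold and 62.6-fold. PDC2, the second decarboxylase, showed the smallest ratio of the 3 genes in every pool: 12.9-fold in nuclear RNA, 13.1-fold in poly(A)+ RNA and 15.0-fold in TRAP RNA. With the means of 2HS these 3 genes passed from above 77.6% to 88.3% of protein-coding genes to above 99.1% to 99.8% of them in TRAP RNA.

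These are ratios of means, and the 2HS libraries behind them could not be fixed one by one, so that neither their overlap with the controls nor a test can be given directly. Relative to the median gene the differences of the means were 5.11 for PDC1, 4.66 for ADH1 and 3.98 for PDC2 in nuclear RNA on the log2 scale. They were 5.41, 4.45 and 3.25 in poly(A)+ RNA and 6.56, 5.96 and 3.90 in TRAP RNA. In each pool the means of at least 3 of the 6 genes were 2-fold or more higher at 2HS, 3 in nuclear RNA, where 10.0% of all genes were, 4 in poly(A)+ RNA, where 2.78% were, and 4 in TRAP RNA, where 5.95% were. The fourth gene in the last 2 pools was LDH1, and no mean of the 6 was 2-fold lower. When limma was run on every set of whole reads that gives the nuclear RNA mean, adjusted p lay below 0.05 in 50 of 53 sets for PDC1, in 27 of 29 for ADH1 and in 22 of 27 for PDC2. In poly(A)+ RNA the same was true of 22 of 25 sets for PDC2. The means do not say which set is the real one.

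After 9 h of hypoxia the same 3 genes again had higher means than their controls in nuclear RNA. PDC1 went from a mean of 3.78 to 409 RPKM, ADH1 from 6.77 to 377 and PDC2 from 4.04 to 214, ratios of 108-fold, 55.7-fold and 53.1-fold. The long-night controls were known singly, and held 9.46, 4.84 and 6.0 RPKM for ADH1. The differences of the means relative to the median gene were 6.41 for PDC1, 5.60 for ADH1 and 5.41 for PDC2. They exceeded those at 2 h by 1.31, 0.93 and 1.43 in the same order, with no test. In this comparison of responses 12.2% of all genes had means 2-fold or more higher. The 3 genes were among 5 of the 6 with means 2-fold or more higher at 9 h in nuclear RNA, where 13.1% of all genes were. Limma's adjusted p lay below 0.05 in 168 of 172 read sets for PDC1, 84 of 85 for ADH1 and 23 of 25 for PDC2.

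In poly(A)+ RNA at 9HS the 6 genes made up 0.291% of all protein-coding RPKM, against 0.0140% at 9NS and 0.216% at 2HS. Mean levels at 9HS were 88.0 RPKM for ADH1, 39.8 for PDC1 and 22.2 for PDC2, against 9.09, 3.47 and 2.72 at 9NS, ratios of 9.69-fold, 11.5-fold and 8.16-fold. Relative to the median gene the differences were 4.89, 4.94 and 4.39, and with no such centring they were 3.14, 3.19 and 2.64. On the centred scale limma's adjusted p lay below 0.05 in 10 of 10 read sets for ADH1, 2 of 2 for PDC1 and 2 of 2 for PDC2. Read sets were not run without centring. Whether the response of ADH1 or PDC2 to 9 h exceeded that to 2 h in this pool turned with the setting. For ADH1 the difference of the responses was 0.47 centred and −1.56 not centred, for PDC2 it was 1.17 and −0.87, and for PDC1 −0.44 and −2.48. For PDC1 all the read sets placed the 9HS libraries, between 22.4 and 57.9 RPKM, above the 9NS ones, between 1.89 and 6.21. Means of 3 of the 6 genes were 2-fold or more higher at 9 h, against 5.26% of all genes.

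**Figure D2:**
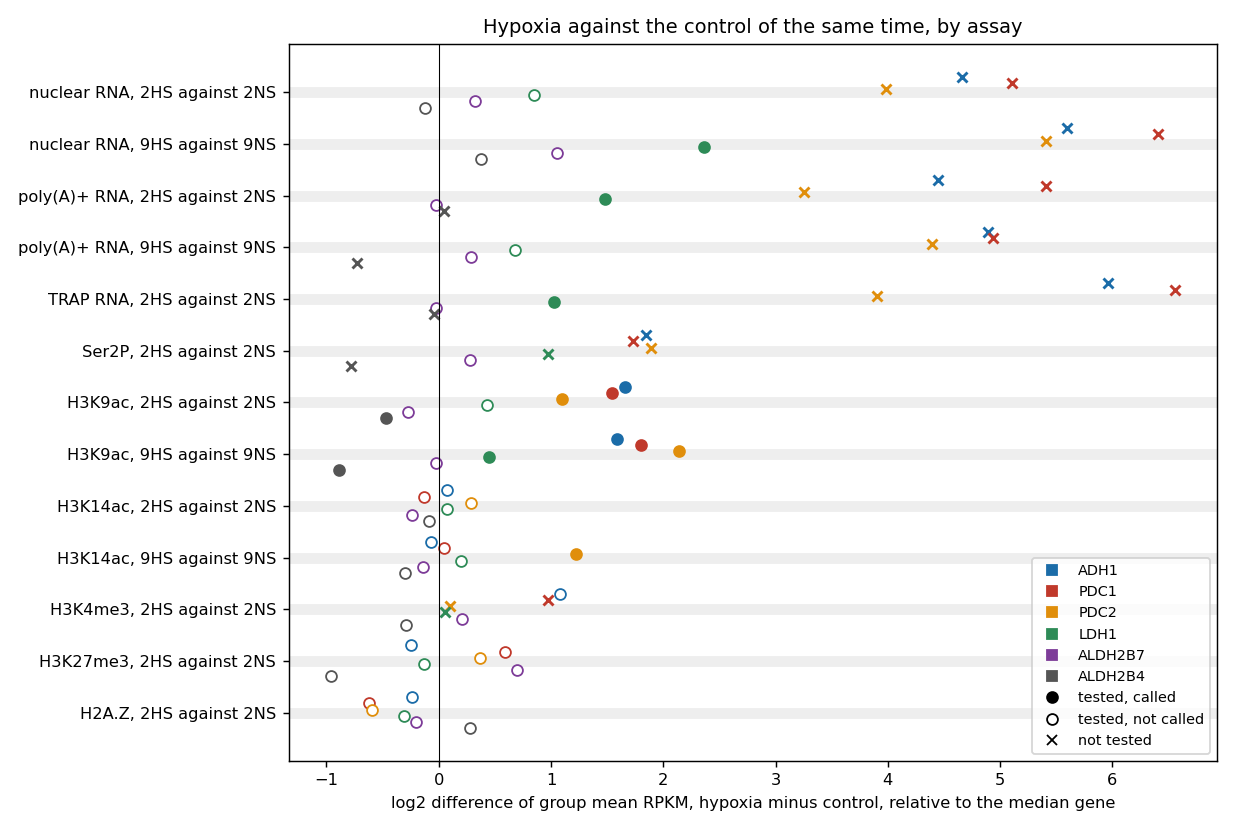
Difference between the hypoxia and control means of each gene (log2 of RPKM + 1, relative to the median gene) in 13 comparisons over the RNA, polymerase, histone mark and H2A.Z assays. Filled points passed limma's adjusted p of 0.05, open points were tested and did not, and crosses could not be tested; ADH1, PDC1 and PDC2 lie highest in the RNA comparisons, from 3.25 to 6.56.

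The balance between the decarboxylases differed between air and hypoxia. The ratio of PDC1 to PDC2 means went from 0.505 at 2NS to 3.37 at 2HS in TRAP RNA, from 0.353 to 2.0 in poly(A)+ RNA and from 0.483 to 1.16 in nuclear RNA. After 9 h it went from 0.937 to 1.91 in nuclear RNA and from 1.28 to 1.80 in poly(A)+ RNA. PDC2 was thus the more abundant of the pair at 2NS in each pool and PDC1 at 2HS, in ratios of means with no test. RPKM is scaled to gene length, so the levels of the 2 genes can be set beside each other, with the limit that reads of related decarboxylase genes may have been shared between them. Summed over the 6 genes, the share of all protein-coding RPKM went from 0.0231% to 0.524% in TRAP RNA, from 0.0214% to 0.216% in poly(A)+ RNA and from 0.0254% to 0.358% in nuclear RNA within 2 h, and from 0.0167% to 0.418% in nuclear RNA and from 0.0140% to 0.291% in poly(A)+ RNA within 9 h.

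After 1 h of air the nuclear means of the ethanol genes were between those of 2NS and 2HS. In nuclear RNA at 1R, ADH1 held 79.2, 23.5 and 14.6 RPKM against 10.6, 8.12 and 1.58 at 2NS. PDC1 held 36.2, 12.7 and 11.5 RPKM against 6.56, 6.50 and 1.19. Both genes had every 1R library above every control library. For PDC2, with 20.9, 27.7 and 11.1 RPKM against 8.71, 18.2 and 2.61, the groups overlapped. The differences from 2NS were 2.13 ± 0.44 (SE, n = 3 against 3) for ADH1, 1.75 ± 0.40 for PDC1 and 1.03 ± 0.42 for PDC2, and none of them passed, with limma adjusted p of 0.0939, 0.169 and 0.525. Without the deepest 1R library the difference of ADH1 was 2.5 ± 0.47 and passed (limma adjusted p = 0.0492). Over all genes 0.0782% were called higher and 0.0% lower in this comparison.

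Between 2HS and 1R the nuclear means went from 146 to 39.1 RPKM for ADH1, from 147 to 20.1 for PDC1 and from 126 to 19.9 for PDC2, differences of −2.33, −3.27 and −3.07 relative to the median gene. These 3 were the only ones of the 6 with a mean 2-fold or more lower, where 13.4% of all genes were. LDH1 had a higher mean at 1R, 11.8 against 2.60 RPKM, but its groups overlapped. Its difference of 0.78 ± 0.61 did not pass (limma adjusted p = 0.559). For the ethanol genes limma called the difference between 2HS and 1R in 14 of 29 read sets for ADH1, 38 of 53 for PDC1 and 17 of 27 for PDC2.

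Poly(A)+ RNA at 1R did not follow the nuclear pool for ADH1. Its mean was 220 RPKM at 1R and 129 at 2HS, which relative to the median gene is a difference of 0.15. PDC1 instead went from 157 to 38.2 RPKM and PDC2 from 78.6 to 32.8, differences of −2.63 and −1.85, and these were the 2 of 6 genes with means 2-fold or more lower, where 2.01% of all genes were. The ratio of ADH1 to PDC1 therefore reached 5.76 at 1R. Compared with 2NS the means of 4 of the 6 genes were still 2-fold or more higher, against 2.96% of all genes: ADH1 by 4.61, PDC1 by 2.79, PDC2 by 1.41 and LDH1. Against 2NS limma called PDC1 in 8 of 13 read sets and PDC2 in 4 of 7, with adjusted p up to 0.423 and 0.797. Against 2HS it called PDC2 in 63 of 175. The read sets of ADH1, and of PDC1 against 2HS, were too many to run.

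After 2 h of air, ribosome-bound RNA of PDC1 was above its 2NS level, while for PDC2 no difference from 2NS was detected. PDC2 held 23.2, 14.1 and 21.7 RPKM at 2R against 20.3, 18.0 and 16.5 at 2NS, overlapping groups with a difference of −0.05 ± 0.19 (limma adjusted p = 0.901). PDC1 held 22.2, 17.9 and 20.9 RPKM against 9.78, 8.41 and 9.47. Its 3 libraries were all above the controls, by 0.93 ± 0.14 (limma adjusted p = 0.00540), and this call held in all 18 settings tried. PDC1 was the only one of the 4 genes tested to pass, where 2.53% of all genes were called higher. ADH1 stayed highest, with a mean of 169 RPKM against 19.8, a difference of 2.91 that limma called in 20 of 30 read sets, and it stood 8.29-fold above PDC1. Against 2HS the means were lower by 3.04 for ADH1, 5.61 for PDC1 and 3.91 for PDC2 on the log2 scale, and with LDH1 these were 4 of 6 genes 2-fold or more lower, where 7.38% of all genes were.

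LDH1, the enzyme of the lactate branch, could be tested in every RNA pool. In TRAP RNA it held 26.0, 16.4 and 18.6 RPKM at 2NS, 37.3, 43.8 and 41.5 at 2HS, and 19.6, 14.8 and 24.0 at 2R. Every hypoxic library lay above every control and every recovery library, and the last 2 groups overlapped. The gene rose by 1.06 ± 0.19 under hypoxia (limma adjusted p = 0.00143) and fell by 1.26 ± 0.19 in air (limma adjusted p = 0.000279). It was the only 1 of the genes tested to be called in either comparison, where 13.3% of all genes were called higher under hypoxia and 17.7% lower in air.

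In poly(A)+ RNA LDH1 held 2.08, 4.01 and 3.51 RPKM at 2NS, 3.74, 21.3 and 13.9 at 2HS and 10.8, 16.5 and 18.7 at 1R. In RPKM the hypoxic group overlapped the controls through its first library, and the recovery group lay wholly above them. The libraries differed in scale, with median ratios of 0.517, 1.24 and 0.981 at 2NS, 0.454, 1.72 and 1.27 at 2HS and 1.45, 2.62 and 1.92 at 1R. LDH1 rose by 1.32 ± 0.24 at 2HS (limma adjusted p = 0.000660), the only call among the genes tested where 4.52% of all genes were called higher, and was 1.15 ± 0.24 above 2NS at 1R (limma adjusted p = 0.00244), where 9.60% were. Both calls were absent where libraries were not centred on their median gene. At 9 h the mean RPKM was lower, with 4.71, 1.59 and 1.96 RPKM at 9HS against 2.02, 7.60 and 10.98 at 9NS, in overlapping groups. Relative to the median gene this was a difference of 0.55 ± 0.25 that did not pass (limma adjusted p = 0.0766), and with no centring it was −0.94. Without the deepest 9NS library it was 0.76 ± 0.26 and passed (limma adjusted p = 0.0351), as it did without the shallowest 2HS library, which shares the fit (adjusted p = 0.0388).

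Nuclear LDH1 RNA was scarce, and its libraries were far apart. It held 0.824, 4.03 and 0.197 RPKM at 2NS and 4.02, 2.40 and 1.39 at 2HS, overlapping groups with a difference of 1.04 ± 0.61 (limma adjusted p = 0.654). At 1R it held 26.1, 7.68 and 1.58 RPKM, which overlapped both. After 9 h it held 27.1, 4.90 and 7.33 RPKM against 2.75, 1.01 and 1.43, with every hypoxic library above every control. The rise of 2.15 ± 0.61 passed (limma adjusted p = 0.0442), as the only call among 3 genes tested where 3.02% of all genes were called higher, but in only 10 of 24 settings. Without the shallowest 9HS library, which holds the highest value, it was 1.58 ± 0.64 (limma adjusted p = 0.247), and it also missed the threshold without the deepest 9HS library or any one of the 9NS libraries (adjusted p from 0.0666 to 0.174).

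No such difference was detected for the aldehyde dehydrogenases at 2 h. ALDH2B4, which has the higher level of the pair, had means of 36.1 RPKM at 2NS, 33.6 at 2HS and 47.3 at 2R in TRAP RNA. Its libraries there were not known singly, and limma called none of 9 read sets at 2HS, with changes from −0.43 to 0.87. In poly(A)+ RNA at 2HS it called none of 8 read sets of ALDH2B4 (0.07 to 0.38), and ALDH2B7 differed by 0.02 ± 0.16 (limma adjusted p = 0.966). ALDH2B7 in the same pool ranged from 4.88 to 7.62 RPKM at 2NS, from 5.28 to 6.26 at 2HS and from 2.99 to 5.46 at 2R. The first 2 groups of ALDH2B7 overlapped entirely. In nuclear RNA ALDH2B4 ranged from 2.25 to 17.7 RPKM at 2NS, from 2.66 to 12.1 at 2HS and from 7.18 to 35.7 at 1R, again overlapping, with a hypoxic difference of 0.04 ± 0.40 (limma adjusted p = 0.997). With a standard error of 0.40 a small change was not detectable at this depth.

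At 9 h in nuclear RNA ALDH2B4 ranged from 16.1 to 16.9 RPKM at 9NS and from 12.9 to 33.9 at 9HS, overlapping groups with a difference of 0.36 ± 0.41 (limma adjusted p = 0.699). ALDH2B7 held 8.43, 3.88 and 3.73 RPKM at 9HS against 1.69, 1.93 and 2.54 at 9NS, so that every hypoxic library lay above every control, but the difference of 1.06 ± 0.57 did not pass (limma adjusted p = 0.319). In poly(A)+ RNA the means of both genes were lower at 9HS: ALDH2B7 went from 2.97 to 0.446 RPKM and ALDH2B4 from 24.4 to 3.56. Relative to the median gene, which lay 1.75 lower in the same column, ALDH2B4 differed by −0.73, with 1 of 6 read sets called by limma. For ALDH2B7 the sign turned with the setting: it was 0.12 ± 0.16 relative to the median gene (limma adjusted p = 0.575), −0.50 when genes of low level were kept in the fit and −1.38 with no centring. ALDH2B7 was called lower at 1R than at 2HS in poly(A)+ RNA, by −0.48 ± 0.16 (limma adjusted p = 0.0398), where 6.83% of all genes were. Its mean was 2.05 RPKM at 1R and 1.86 at 2HS, the median gene lay 0.61 higher at 1R, and with no centring the difference was 0.16. The call held in 12 of 24 settings and was lost without any single one of the 6 libraries compared, with adjusted p then from 0.0650 to 0.153.

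The controls of the longer and shorter night also differed for 1 decarboxylase. PDC2 in poly(A)+ RNA held 1.22, 3.05 and 3.89 RPKM at 9NS against 3.18, 8.63 and 6.16 at 2NS. The groups overlapped in RPKM, but relative to the median gene PDC2 was lower by −1.73 ± 0.19 (limma adjusted p = 1.77e-05), a call that held in 22 of 24 settings and that fell away with no centring. It was the only gene called of the 5 tested in this comparison, where 7.43% of all genes were called lower. ADH1 held 3.61, 8.26 and 15.4 RPKM at 9NS against 2.90, 4.83 and 4.25 at 2NS, and PDC1 1.89, 2.31 and 6.21 against 1.09, 2.84 and 2.42, all in overlapping groups.

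On the chromatin, H3K9 acetylation, a mark of active genes, rose over all 3 ethanol genes. ADH1 held 7.66 and 7.93 RPKM at 2NS and 26.9 and 26.2 at 2HS. PDC1 held 9.33 and 9.83 RPKM at 2NS and 28.2 and 30.7 at 2HS. PDC2 started far higher, with 45.3 and 47.4 RPKM, and reached 107 and 91.7. In all 3 genes both hypoxic libraries lay above both controls, and the rise passed limma's test: 1.66 ± 0.16 for ADH1 (adjusted p = 0.000120), 1.54 ± 0.12 for PDC1 (adjusted p = 4.24e-05) and 1.10 ± 0.18 for PDC2 (adjusted p = 0.00256). They were 3 of 6 genes called higher, where 7.05% of all genes were.

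H3K9ac was lower over ALDH2B4 under hypoxia. It held 19.1 and 18.5 RPKM at 2NS and 12.3 and 14 at 2HS, and at 9 h went from 18.3 and 20.2 to 10.3 and 9.64. The hypoxic libraries were below the controls at both times. It fell by 0.47 ± 0.13 at 2 h (limma adjusted p = 0.0364), as 1 of 6 genes where 5.12% of all genes were called lower, and by 0.89 ± 0.13 at 9 h (limma adjusted p = 0.000346), where 16.6% were. The 2 h call was lost without either 2NS library or without the shallower 2HS library, with adjusted p from 0.156 to 0.197. ALDH2B7 held 7.64 and 8.21 RPKM at 2NS and 5.92 and 6.79 at 2HS, a difference of −0.26 ± 0.15 that did not pass (adjusted p = 0.312), and its groups overlapped at 9 h.

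At 9 h the acetylation of the ethanol genes remained high. ADH1 held 21.3 and 31.4 RPKM against 9.15 and 6.93, PDC1 26.2 and 33.0 against 8.07 and 7.41, and PDC2 108 and 143 against 28.7 and 26.4. Each of these 9HS libraries lay above the 9NS libraries of its gene. The rises were 1.58 ± 0.16 for ADH1, 1.79 ± 0.12 for PDC1 and 2.13 ± 0.18 for PDC2 (limma adjusted p = 3.18e-05, 3.76e-06 and 1.04e-05). LDH1, with 33.0 and 41.7 RPKM against 29.0 and 24.9, also passed at 0.44 ± 0.14 (limma adjusted p = 0.0267), in 13 of 17 settings (0.26 ± 0.14 without the deeper 9HS library and 0.38 ± 0.16 without the deeper 9NS library, adjusted p = 0.238 and 0.128), so that 4 of 6 genes were called higher where 15.4% of all genes were. At 2 h LDH1 had gone from 28.2 and 31.0 to 42.3 and 37.4 RPKM, groups that did not overlap, but the difference of 0.43 ± 0.14 did not pass (adjusted p = 0.0617), though it did without either 9HS library in the shared fit (adjusted p = 0.0437 and 0.0436). PDC2 was the only gene of the 6 called for a larger response at 9 h than at 2 h, by 1.04 ± 0.26 (limma adjusted p = 0.0434, in 5 of 16 settings), where 1.84% of all genes were. Its 9NS mean of 27.5 RPKM was below its 2NS mean of 46.4, by −0.75 ± 0.18 (limma adjusted p = 0.0944). The call was lost without any one of the libraries but the shallower 9HS library, with values from 0.83 to 1.14 and adjusted p from 0.0664 to 0.175.

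**Figure D3:**
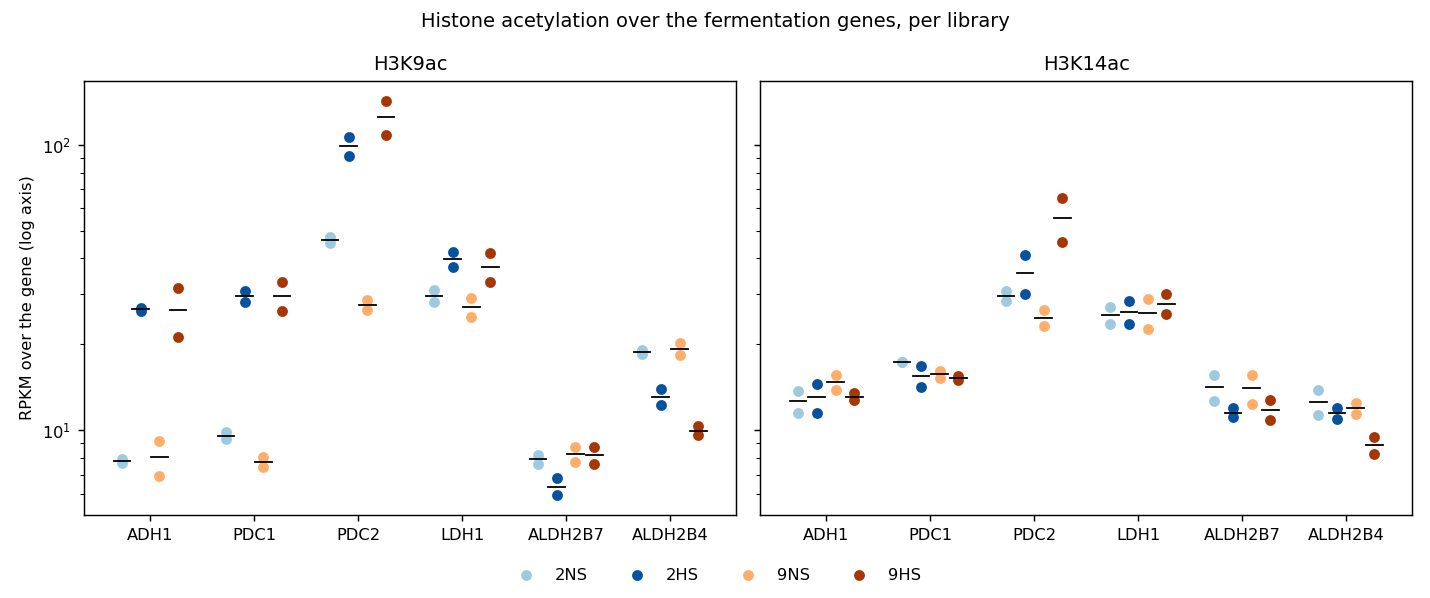
H3K9ac and H3K14ac over the 6 genes in each library (circles, RPKM on a log axis), with black bars for the group means. For H3K9ac both hypoxic libraries of ADH1, PDC1 and PDC2 sit above both controls at 2 h and 9 h, and those of ALDH2B4 below; for H3K14ac PDC2 at 9HS, with 65.1 and 45.5 RPKM, stands apart from its controls.

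H3K14 acetylation changed at 1 of the 6 genes. PDC2 held 23.2 and 26.4 RPKM at 9NS and 65.1 and 45.5 at 9HS, a rise of 1.20 ± 0.22 (limma adjusted p = 0.00259) that held in all 17 settings, where 17.5% of all genes were called higher. At 2 h it held 30.8 and 28.4 RPKM against 41.0 and 30.1, groups that overlapped, and no gene of the 6 was called where 0.429% of all genes were called higher. The test of the 9 h response against the 2 h response did not pass for PDC2 (0.89 ± 0.31, limma adjusted p = 0.266). ADH1 lay between 12.7 and 13.5 RPKM at 9HS and 13.9 and 15.7 at 9NS, and PDC1 between 15.1 and 15.5 and between 15.3 and 16.2. The hypoxic libraries thus lay below the controls for ADH1 and overlapped them for PDC1 in H3K14ac. Neither difference passed (−0.07 ± 0.13 for ADH1 and 0.05 ± 0.11 for PDC1, limma adjusted p = 0.75 and 0.761). No change of H3K14ac was thus detected at 9 h over these genes, whose H3K9ac was higher.

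Elongating polymerase had higher means over the ethanol genes. Ser2P went from 13.4 to 47.3 RPKM over ADH1, from 14.9 to 48.2 over PDC1 and from 28.6 to 101 over PDC2. Relative to the median gene these differences were 1.85, 1.73 and 1.89, and the 3 genes were the ones of the 6 with means 2-fold or more higher, where 4.04% of all genes were. LDH1 followed with 20.5 to 38.3 RPKM, or 0.97, and ALDH2B4 went from 15.7 to 8.11, or −0.78. Limma called none of the 16780 genes tested in Ser2P, 0.0% of all genes, while 577 had an unadjusted p under 0.05, and no read set of ADH1, PDC1, LDH1 or ALDH2B4 was called; those of PDC2 were over the limit of 200 and were not run.

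None of the 6 genes was called in the remaining marks. In H2A.Z, the histone variant often found near the start of responsive genes, PDC1 held 31.8 and 30.2 RPKM at 2NS and 21.3 and 18.0 at 2HS, and PDC2 28.4 and 22.6 against 19.4 and 13.6. The hypoxic libraries lay below the controls for PDC1, PDC2, ADH1, LDH1 and ALDH2B7 and above them for ALDH2B4, with none called. For PDC1 and PDC2 the differences were −0.62 ± 0.16 and −0.60 ± 0.19 (limma adjusted p = 0.144 and 0.263), where 0.136% of all genes were called lower. Without the shallower 2HS library both passed (−0.77 ± 0.17 and −0.86 ± 0.17, limma adjusted p = 0.0111 and 0.00264), and without the deeper one PDC1 did (−0.49 ± 0.18, adjusted p = 0.0442). Over all genes 481 were called without the shallower and 5939 without the deeper 2HS library, against 50 with both. For H3K4me3 over ADH1 the libraries held 5.96, 7.08 and 6.47 RPKM at 2NS and 15.3, 18.4 and 11.9 at 2HS. These groups did not overlap and differed by 1.01 ± 0.22 (limma adjusted p = 0.748), and the mean of PDC1, 11.1 RPKM at 2NS and 23.3 at 2HS, was higher by 0.97. On the centred scale of log2(RPKM + 1) ADH1 was the only 1 of the 6 with means 2-fold or more higher in H3K4me3, where 0.711% of all genes were. Limma called none of the 19125 genes tested for H3K4me3, with 1177 at an unadjusted p under 0.05, and none of the 26127 for H3K27me3, with 999, so 0.0% of all genes were called in either. H3K27me3 over the 6 genes lay between 0 and 12.3 RPKM in every library.

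Open chromatin was described from the authors' lists of ATAC peaks, 1 per condition, in which replicates were combined, so the lists give positions and scores without an error. Coordinates are on TAIR10. The lists held 14398 peaks at 2NS, 27219 at 2HS, 38958 at 1R, 27065 at 9NS and 21438 at 9HS, and a peak was assigned to 30.8%, 53.2%, 65.3%, 52.1% and 45.5% of protein-coding genes. Of the 6 genes 1, 5, 4, 4 and 2 had an assigned peak in the same order. The lists differ in length, so a peak that is in 1 list and not in another does not by itself show a change.

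**Figure D4:**
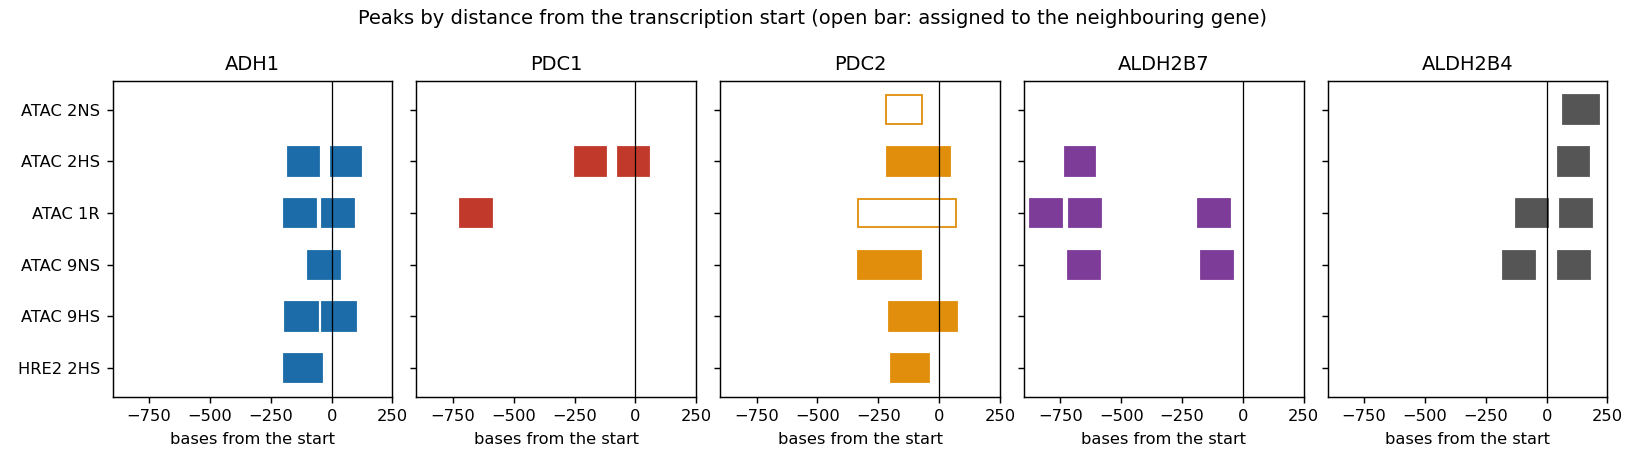
Peaks near the 6 genes in the 5 ATAC lists and the HRE2 list, drawn as bars by their distance in bases from the start of the gene. Open bars are peaks that the authors' annotation assigned to the neighbouring gene (PDC2 at 2NS and 1R); LDH1 has none in any list, and the HRE2 peaks lie just upstream of ADH1 and PDC2.

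ADH1 had no peak at 2NS. At 2HS it had peaks at chr1:28975077-28975201, centred at −116 bases from the start (negative is upstream) with a score of 58.9, and at chr1:28975254-28975378, centred at 61 bases with a score of 36.3. At 1R it had peaks at −130 and 26 bases with scores of 37.3 and 35.4. At 9NS there was a single peak at chr1:28975160-28975290 with a score of 30.2, and at 9HS a pair with scores of 31.7 and 29.5. All were annotated as promoter. The HRE2 peak at chr1:28975061-28975216 was centred at −117 bases and contained all 125 bases of the upstream 2HS peak.

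PDC1 had peaks in the 2HS list, centred at −8 and −184 bases with scores of 25.0 and 26.6, and one of lower score at −655 bases in the 1R list with a score of 21.4. It had none in the 2NS, 9NS, 9HS and HRE2 lists. PDC2 shares its upstream region with the divergent neighbour AT5G54970, and a peak there was in all 5 ATAC lists. Its score was 39.1 at 2NS, 108.1 at 2HS, 200.9 at 1R, 131.1 at 9NS and 107.7 at 9HS, and the peaks at 2NS and 1R were assigned to the neighbour. The HRE2 peak at chr5:22312875-22313030 overlapped all 5, so the gene it belongs to is uncertain. Over whole genes the HRE2 libraries held 24.2 and 33.9 RPKM at PDC2, 13.8 and 20.4 at ADH1 and 14.9 and 15.0 at PDC1, which put these genes above 98.5%, 90.2% and 84.3% of protein-coding genes. LDH1, ALDH2B7 and ALDH2B4 stood above 63.7%, 51.6% and 22.7% of them, and with no control group these values carry no contrast. ADH1 and PDC2 were the 2 genes of the 6 with an HRE2 peak, against 17.8% of protein-coding genes.

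ALDH2B4 had a peak in the first exon region or promoter at 2NS, 2HS, 1R and 9NS, with scores from 23.2 to 48.9, and none at 9HS. ALDH2B7 had peaks at 2HS, 1R and 9NS, with scores from 22.6 to 51.3, and none at 2NS or 9HS. LDH1 had no peak in any of the lists, although its RNA was in every RNA pool.

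Related genes of the same reactions, 27 in all, gave the surroundings of the 6. They are the other decarboxylases PDC3 and PDC4, other alcohol and aldehyde dehydrogenases, D-lactate dehydrogenase, the lactic acid channel NIP2-1, the glycolate oxidase family member GOX3, and ACS and ACN1, which activate acetate. In TRAP RNA at 2 h 24 passed the filter and 13 could be tested, of which 2 were called higher, where 13.3% of all genes were, and none lower, with a median difference of means of 0.28 on a scale where the median of all genes is 0. PDC4, a decarboxylase of low level, held 0.326, 0.421 and 0.414 RPKM at 2NS, 3.61, 4.45 and 2.39 at 2HS, and 0.582, 0.569 and 0.647 at 2R. Its hypoxic libraries stood well apart from both other groups, with a difference from 2NS of 1.73 ± 0.19 (limma adjusted p = 3.51e-05). PDC4 passed the filter of a mean of 1 RPKM over the 3 groups only through 2HS. Its calls therefore give no separate support, and the counts of calls given here include it. Reads from PDC1, a close relative at a far higher level, could have been counted at PDC4, and their part was not tested. PDC3 had TRAP means of 0.353, 0.202 and 0.489 RPKM in the same 3 groups. D-LDH, the mitochondrial enzyme that oxidises D-lactate, rose by 0.63 (limma adjusted p = 0.0172). At 2R 7 of 14 genes tested were called lower than at 2HS, where 17.7% of all genes were, among them PDC4 by −1.66 and D-LDH by −1.05.

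In nuclear RNA ALDH7B4, a stress-induced aldehyde dehydrogenase of the lysine breakdown pathway, went from 5.94, 13.2 and 3.01 RPKM at 2NS to 79.7, 22.1 and 18.6 at 2HS. Its groups did not overlap, and its rise of 2.59 ± 0.43 (limma adjusted p = 0.00331) was the only call among 22 genes tested, where 1.25% of all genes were called higher. At 9 h ALDH5F1, the succinic semialdehyde dehydrogenase of the GABA shunt, was the only one called in nuclear RNA, by 1.36 ± 0.35 (limma adjusted p = 0.0294), and in poly(A)+ RNA 5 of 15 tested were called higher and none lower, where 19.8% and 21.3% of all genes were. For H3K9ac at 9 h 8 of 26 were called lower, where 16.6% of all genes were, and 1 higher, where 15.4% were, with the largest fall at AT1G22430, an alcohol dehydrogenase-like gene, by −1.09. ADH2, which acts on formaldehyde bound to glutathione rather than on ethanol, had TRAP means of 121 RPKM at 2NS, 108 at 2HS and 127 at 2R. NIP2-1 was listed at 0 in every poly(A)+ column and in nuclear RNA at 9HS had 2.82 RPKM in 1 library and no reads in the other two.

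Among 209 genes that varied by at least 4-fold in each RNA pool, the 5 whose log2 levels followed ADH1 most closely over the 13 RNA columns were SUS1 (sucrose synthase, r = 0.980), TIL (a lipocalin, 0.960), PFK3 (phosphofructokinase, 0.953), AT5G19240 (0.952) and TCH3 (a calmodulin-like protein, 0.948). PDC1 came sixth with r = 0.946, and PDC2 had 0.911. LDH1 had 0.634, ALDH2B7 0.155 and ALDH2B4 −0.046. These are Pearson correlations over group means that share a small set of libraries and depths, and are given as a description. SUS1, which feeds sucrose into glycolysis, went from a mean of 3.40 to 109 and back to 9.62 RPKM in TRAP RNA over 2NS, 2HS and 2R.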

How the data were processed

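Per the submitters' processing notes, reads were handled with TopHat2, Bowtie2 and HOMER on TAIR10; which tool did what, and how peaks were called, is not given in the sources used here. The authors deposited RPKM as 1 mean per group, and lists of peaks that, per the file headers, were annotated with HOMER and Araport11 on combined files and carry the authors' peak score. Whole reads and library totals behind each mean were recovered by arithmetic from the RefSeq gene lengths (77 libraries in 30 columns), so that levels are per gene span, introns included. In simulated poly(A)+ means the library totals were found in 2 of 2 columns tried. With the true totals given, 130542 of 130542 recovered values were right, which is certain wherever a single solution exists. That is no check of the RefSeq lengths or of the totals of the real libraries. Recovered libraries carry no replicate number.

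Log2(RPKM + 1) was centred on the median gene of each library and of each contrast, and fitted with limma 3.58.1 (trend, R 4.3.3; Python 3.11.15) over all groups of an assay, for genes whose mean reached 1 RPKM, with Benjamini-Hochberg adjustment at 0.05 over all genes tested. Tested on simulated data, it called 55 of 55 genes changed 4-fold and 56 of 76 changed 2-fold in poly(A)+ RNA, and 91 of 100 and 31 of 100 in H3K9ac. Of 116 calls in poly(A)+ RNA 5 were unchanged genes, and of 132 in H3K9ac 10 were. The simulated spread between libraries was fixed in advance. Simulated library scales varied less than those of the real poly(A)+ libraries, which ran from 0.226 to 3.34. These counts therefore do not measure power or error on the real libraries. Genes without recovered reads were compared by the deposited means alone; the calls over all read sets that give those means, at most 200 per comparison, were added after seeing the data. Alternatives were the pseudocount, filter, centring, scaling, groups fitted and each library left out. The members, the list of related genes and the tissue genes were chosen with earlier results of these data known. Named genes are the 6 members, called genes of the related list with the largest changes, and the 5 genes most like ADH1. No sequences are shown because none were at hand. Peak scores of HRE2 are all 0 and were not used.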

Additional observations from a re-analysis of the deposited data

Results flagged for a closer look

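PDC2 had a larger rise of H3K9ac after 9 h than after 2 h of hypoxia, by 1.04 ± 0.26 on the log2 scale (limma interaction term, adjusted p = 0.0434), with both hypoxic libraries above both controls at each time. It was called in 5 of 16 settings, and the 9NS controls were themselves lower than the 2NS controls, with means of 27.5 and 46.4 RPKM (−0.75 ± 0.18, adjusted p = 0.0944; called in 3 of 17 settings). Relatives of the 6 genes also had responses that differed between times or RNA pools by the same kind of test. In poly(A)+ RNA the 9 h response exceeded the 2 h response by 0.92 ± 0.20 for ALDH5F1 (adjusted p = 0.00423) and by 0.76 ± 0.22 for D-LDH (adjusted p = 0.0220). The 9NS controls of ALDH5F1 were themselves lower than its 2NS controls in this pool, by −1.07 ± 0.14 (limma adjusted p = 1.72e-05). H3K9ac over AT1G22430 had a 9 h response lower than that at 2 h by −1.08 ± 0.18 (adjusted p = 0.0121). The 2 h response of PDC4 was larger in TRAP RNA than in poly(A)+ RNA by 1.55 ± 0.35 (adjusted p = 0.0254), between pools from different plant lines. In TRAP RNA PDC4 passed the filter only through its 2HS level, so this call gives no separate support. Reads from PDC1 could have been counted at PDC4, which was not tested.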

How the results depend on the processing

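Of the log2 changes of the members, 850 stayed on the same side of the threshold under another setting, 12 became significant and 22 ceased to be. A further 4 changed sign with a call in the main or the other setting. With 1 library left out these counts were 1120, 14, 27 and none. A change of sign between settings without a call was counted as unchanged. For ALDH2B7 in nuclear RNA at 2 h, never called, the change ran from −0.36 to 0.45 over 24 settings. Of the untested differences of means 248 moved by at most a factor of 1.5, 44 by more and 3 changed sign. The sign changes so counted were all in poly(A)+ RNA. For ALDH2B7 they were at 9 h (−0.50 with no filter, −1.38 not centred) and at 1R against 2HS (0.16 not centred). Its 9 h against 2 h response also changed sign (−1.57 not centred). In the latter comparison the means did so for ADH1 (−1.56 not centred) and PDC2 (−0.12 with a pseudocount of 5, −0.87 not centred). The cause was not tested.

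The number of members called changed as follows. In nuclear RNA at 9 h it was 0 with a pseudocount of 0.5, with no centring of the contrast or of the libraries, with rescaling to the protein-coding total and with median-ratio scaling; it was 1 for 1R against 2NS with no filter or median-ratio scaling, and 1 for 9NS against 2NS when only those groups were fitted. In poly(A)+ RNA with no centring of the contrast or of the libraries it was 0 at 2 h, for 1R against 2HS, for 1R against 2NS and for 9NS against 2NS. It was 1 at 9 h with a pseudocount of 0.5, no filter, no centring, rescaling or median-ratio scaling, and 0 for 1R against 2HS with a pseudocount of 0.5, no filter, rescaling or median-ratio scaling. It was 2 for 1R against 2NS with a pseudocount of 5 or only those groups, and 1 (no filter) or 2 (not centred) for the 9 h against the 2 h response. For H3K9ac it was 1 for 9NS against 2NS with only those groups, and 0 for the 9 h against the 2 h response with no filter, no centring of either kind or median-ratio scaling.

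With 1 library left out the count ran from 0 to 1 in nuclear RNA at 9 h and for 1R against 2NS, from 0 to 1 in poly(A)+ RNA at 9 h, for 1R against 2HS and for the 9 h against the 2 h response, and from 1 to 2 for 1R against 2NS. It ran from 0 to 2 for H2A.Z, from 3 to 5 for H3K9ac at 2 h, from 4 to 5 at 9 h, and from 0 to 1 for H3K9ac in 9NS against 2NS and in the 9 h against the 2 h response. With peaks of a score above the list's median, 0, 3, 2, 2 and 1 members had one at 2NS, 2HS, 1R, 9NS and 9HS, and 1 member had an HRE2 peak with the nearest start within 1000 or 3000 bases.

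No paired analysis was possible because the recovered libraries carry no replicate number. Rescaling single libraries to their protein-coding total and other overlaps of peaks with gene bodies were not run. The shallowest of the recovered libraries was a nuclear RNA library with 1050846 reads, and in that pool a gene of low level had few reads per library. The intervals given cover the spread between libraries only.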
